A study of Homo sapiens with 24 samples.

Results

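MHC class I antigen presentation was followed through 9 genes, HLA-B, HLA-C, HLA-E, HLA-F, B2M, TAP1, TAP2, PSMB9 and NLRC5, out of 58735 genes in the deposited count table. The members were taken by gene name from the table, in all 24 libraries, and each name belonged to 1 gene identifier. All 9 passed the filter on low counts in both cell lines, so none is missing from the comparisons below.

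Poly(A) RNA was sequenced from OE33 and SK-GT-4, established lines of esophageal adenocarcinoma. Each line was used as a Cas9 clone, which received the empty vector and keeps cGAS, and as a cGAS KO clone made by CRISPR-Cas9. Cells received DMSO, the diluent, or MPS1i, the kinase inhibitor reversine at 500 nM, for 48 h, which causes chromosomes to missegregate. This gave 8 groups of 3 libraries, numbered by batch. Both genotypes of a line had been through the CRISPR-Cas9 vector step and received the same treatments for the same time, and every cGAS KO library was taken to come from 1 clone of its line, since the labels name no clone. Clone and genotype therefore cannot be told apart.

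MHC class I molecules display peptides from inside the cell to CD8+ T cells, and nearly all nucleated cells carry them. A polymorphic or nonclassical HLA heavy chain pairs with the invariant light chain B2M, and the peptides are cut by the proteasome and carried into the endoplasmic reticulum by the TAP transporter. Interferons raise the transcription of these genes, together with the transactivator NLRC5. cGAS senses DNA in the cytosol, as in ruptured micronuclei, and signals through STING toward interferons, which is the setting in which a comparison of cGAS KO with Cas9 cells under MPS1i bears on class I genes.

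Of the 9 genes, 7 lie in the MHC on chromosome 6 of GRCh38, the build of the deposited table. In this build HLA-B (ENSG00000234745) spans chr6:31269491-31357188 on the minus strand, an annotated span that covers much of HLA-C (ENSG00000204525, chr6:31268749-31272130, minus strand). TAP1 (ENSG00000168394, chr6:32845209-32853978, minus strand) lies against PSMB9 (ENSG00000240065, chr6:32844136-32859585, plus strand), and the annotated genes overlap. TAP2 (ENSG00000204267) lies at chr6:32821833-32838780 on the minus strand, HLA-E (ENSG00000204592) at chr6:30489467-30494205 and HLA-F (ENSG00000204642) at chr6:29722775-29738528, both on the plus strand. B2M (ENSG00000166710) lies at chr15:44711487-44718877 and NLRC5 (ENSG00000140853) at chr16:56989485-57083531, both on the plus strand. HLA genes are near copies of each other and differ between people, and how reads that fit several genes or overlapping genes were counted is not given in the sources used here. Levels of HLA-B and HLA-C, and of TAP1 and PSMB9, are uncertain to that extent.

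The promoters are shown because the members moved together in some comparisons and apart in others. RefSeq promoters of GRCh38.p14 were matched for 7 of the 9 members, leaving HLA-E and NLRC5. Capitals mark each match, on either strand, that lies whole within a stretch shown. The motifs were GAAA and GAAA with any 2 bases between (the interferon-response type of motif) and AGTGAAAC (its shorter form in HLA genes). The others were TGACG and ATTGG (letters of the class I enhancer's X2 and Y boxes) and GGG, any 2 bases, TT, any 1 base, CC (the NF-κB type). They were searched in the 250 bases before each start, so some matches, such as the NF-κB type of TAP1, lie outside the stretches. The stretches below run 5′ to 3′ on the gene's strand.
HLA-B (chr6:31357230-31357369, minus strand): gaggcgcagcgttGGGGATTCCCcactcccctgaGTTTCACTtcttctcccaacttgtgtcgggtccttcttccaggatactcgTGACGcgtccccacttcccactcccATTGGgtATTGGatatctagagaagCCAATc
HLA-C (chr6:31272143-31272282, minus strand): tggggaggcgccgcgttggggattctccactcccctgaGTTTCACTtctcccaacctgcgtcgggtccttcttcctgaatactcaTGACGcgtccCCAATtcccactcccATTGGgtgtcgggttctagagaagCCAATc
HLA-F (chr6:29723244-29723383, plus strand): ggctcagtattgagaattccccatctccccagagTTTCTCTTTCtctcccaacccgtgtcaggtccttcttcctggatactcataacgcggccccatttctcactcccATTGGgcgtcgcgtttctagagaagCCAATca
B2M (chr15:44711327-44711476, plus strand): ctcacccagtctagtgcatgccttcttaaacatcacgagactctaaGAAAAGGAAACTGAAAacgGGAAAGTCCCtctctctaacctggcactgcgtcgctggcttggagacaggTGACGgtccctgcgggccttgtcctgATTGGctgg
TAP1 (chr6:32853817-32853846, minus strand): gcggccgcTTTCGATTTCGCTTTCccctaa
TAP2 (chr6:32838780-32838805, minus strand): ggggaagcGAAAGCGAAAgctgcccg

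TGACG followed by ATTGG, with starts 20 to 40 bases apart on the same strand, was held by HLA-B, HLA-C and B2M, and by 0.652% of 35097 promoters. The interferon-response type was held by HLA-F, B2M, TAP1 and TAP2, and by 3.02% of all promoters, with overlapping matches in B2M and in TAP1. AGTGAAAC was held by HLA-B and HLA-C and by 0.678% of promoters. In the window searched, PSMB9 matched the short letters TGACG and ATTGG, which 21.2% and 32.0% of promoters hold, and neither interferon-type motif. The TAP1 stretch shown, chr6:32853817-32853846, also lies upstream of the PSMB9 start at chr6:32854192, but outside the window searched for PSMB9. Whether it acts on PSMB9 was not tested. The TAP1 matches are those of its start at chr6:32853704, and its other listed start, at chr6:32852761, matched no motif. The NF-κB type, held by 5.06% of promoters, was in HLA-B, TAP1 and B2M. A match describes the letters of the window and does not show a bound site.

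Libraries held 15561268 to 25284177 counts. In OE33 the cGAS transcript, CGAS, was at 28.9 to 41.6 CPM (counts scaled to library size) in the Cas9 libraries and at 2.3 to 2.8 CPM in 5 of the 6 cGAS KO libraries, while cGAS KO DMSO of batch 2 held 15.6 CPM. In SK-GT-4 it was at 14.7 to 26.1 CPM in Cas9 and 2.2 to 6.1 CPM in cGAS KO libraries. The cGAS KO level was lower than Cas9 in each line and treatment (edgeR quasi-likelihood test, adjusted p from 0.00021 to 0.0040). In SK-GT-4, Cas9 MPS1i of batch 2 and cGAS KO DMSO of batch 1 stood apart, with a mean Pearson r over genes of 0.964 and 0.945 with the other libraries of their groups, against 0.975 to 0.988 in the 2 groups that hold neither. The other libraries of those groups were also lower, with 0.960 and 0.968 for cGAS KO DMSO of batches 2 and 3. The 2 libraries had an r of 0.966 with each other, above the r of either with its own group, and whether they were mixed or exchanged was not tested. OE33 cGAS KO DMSO of batch 2 was picked out for its CGAS level. Its mean r with its group was 0.979, beside 0.981 and 0.979 for batches 1 and 3. For the main counts and the values that moved most, results are also given without the 2 SK-GT-4 libraries or this one. Together they are called the 3 libraries set aside, and all 3 were picked from these same data. Of the 6 SK-GT-4 Cas9 libraries, MPS1i of batch 2 held the most HLA-B, at 135 CPM. The epithelial markers KRT8, KRT18, KRT19, EPCAM and CDH1 were present in every library, although CDH1 was at 3.8 CPM in the lowest SK-GT-4 library. The leukocyte markers PTPRC, CD3E, MS4A1 and NKG7 reached at most 4 counts in a library, and CD14, COL1A1 and, in SK-GT-4, PECAM1 were detectable.

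The largest differences in the class I genes were between the lines. In Cas9 cells under DMSO, all 9 genes were higher in OE33 than in SK-GT-4, by 2.83-fold (B2M) to 59.9-fold (HLA-C), whereas 10.9% of the 25181 genes tested were called higher in OE33, and 24.4% in either direction, when a call takes an adjusted p no larger than 0.01. The median log2 difference was 3.33 over the members and -0.14 over all genes tested. Together the 9 genes took 0.371% to 1.40% of the counts of an OE33 library and 0.0725% to 0.156% of those of an SK-GT-4 library, with no overlap. In bulk RNA, fewer cells that express a gene and less RNA per cell cannot be told apart.

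HLA-C, a classical heavy chain, held 2410, 1728 and 4163 CPM in the OE33 Cas9 DMSO libraries of batches 1, 2 and 3, and 35.7, 50.2 and 42.5 CPM in those of SK-GT-4. The groups lay far apart, and the log2 difference was 5.91 ± 0.44 (SE; edgeR, adjusted p = 2.5e-10). HLA-B, the other classical chain among the members, held 1175, 442 and 1719 CPM in OE33 and 35.8, 37.3 and 32.8 CPM in SK-GT-4. Its log2 difference was 4.79 ± 0.63 (edgeR, adjusted p = 1.8e-06). The lines may carry different alleles of these genes, and how allele and reference mismatch bear on the counts was not tested. HLA-E, the nonclassical chain that the receptor NKG2A on natural killer cells recognizes, held 391 to 769 CPM in OE33 and 77.1 to 100.4 CPM in SK-GT-4 (log2 difference 2.49 ± 0.32). HLA-F, another nonclassical chain, held 17.5 to 59.99 CPM against 2.8 to 3.9 CPM (3.56 ± 0.55).

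B2M, the light chain shared by all class I molecules, differed least, with 1508, 1003 and 1981 CPM in OE33 and 581, 470 and 473 CPM in SK-GT-4. The log2 difference was 1.5 ± 0.37 (edgeR, adjusted p = 0.0022), and it did not pass without batch 1 (adjusted p = 0.020) or without batch 3 (0.050). The sum of the 4 HLA genes over B2M, both in CPM, was 2.06 to 3.39 in OE33 libraries and 0.297 to 0.557 in SK-GT-4 libraries. The transporter subunits TAP1 and TAP2 were 10.1-fold and 9.78-fold higher in OE33 (log2 difference 3.33 ± 0.41 and 3.29 ± 0.34). PSMB9, a catalytic subunit of the immunoproteasome, held 79.5 to 106 CPM in OE33 and 3.7 to 10.4 CPM in SK-GT-4 (3.80 ± 0.39). NLRC5, the transactivator of class I genes, held 25.4 to 39.3 CPM against 3.5 to 6.9 CPM (2.78 ± 0.35). For these 8 genes other than B2M the adjusted p was at most 1.4e-05, and each passed under every alternative run.

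The order of the genes also differed between the lines. On the length-adjusted scale (RPKM, the CPM divided by the gene length in kilobases), the OE33 Cas9 DMSO libraries held HLA-C at 1104 ± 501 (SD, n = 3), HLA-B at 365 ± 210, B2M at 246 ± 80.5, HLA-E at 185 ± 65.9, TAP1 at 53.9 ± 24.4, PSMB9 at 29.2 ± 4.7, TAP2 at 13.8 ± 4.7, HLA-F at 9.8 ± 5.1 and NLRC5 at 2.70 ± 0.58. Within 1 SD, HLA-B, B2M and HLA-E overlapped each other, and so did TAP1 with PSMB9 and TAP2 with HLA-F. This order rests on the deposited gene length, which was 6079 bases for B2M and 3051 for HLA-B. By CPM the mean of B2M in these OE33 libraries (1498 ± 489) lay above that of HLA-B (1112 ± 641). In SK-GT-4 the order began with B2M at 83.6 ± 10.3 RPKM, then HLA-E at 30.7 ± 4.2, HLA-C at 17.1 ± 2.9, HLA-B at 11.6 ± 0.76, TAP1 at 4.79 ± 0.64, PSMB9 at 2.22 ± 1.1, TAP2 at 1.36 ± 0.12, HLA-F at 0.73 ± 0.14 and NLRC5 at 0.39 ± 0.15. In SK-GT-4 PSMB9 and TAP2 were the neighbours that overlapped within 1 SD. The nonclassical HLA-E ranked above HLA-B and HLA-C in that line and below them in OE33, where its spread overlapped that of HLA-B.

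**Figure D1:**
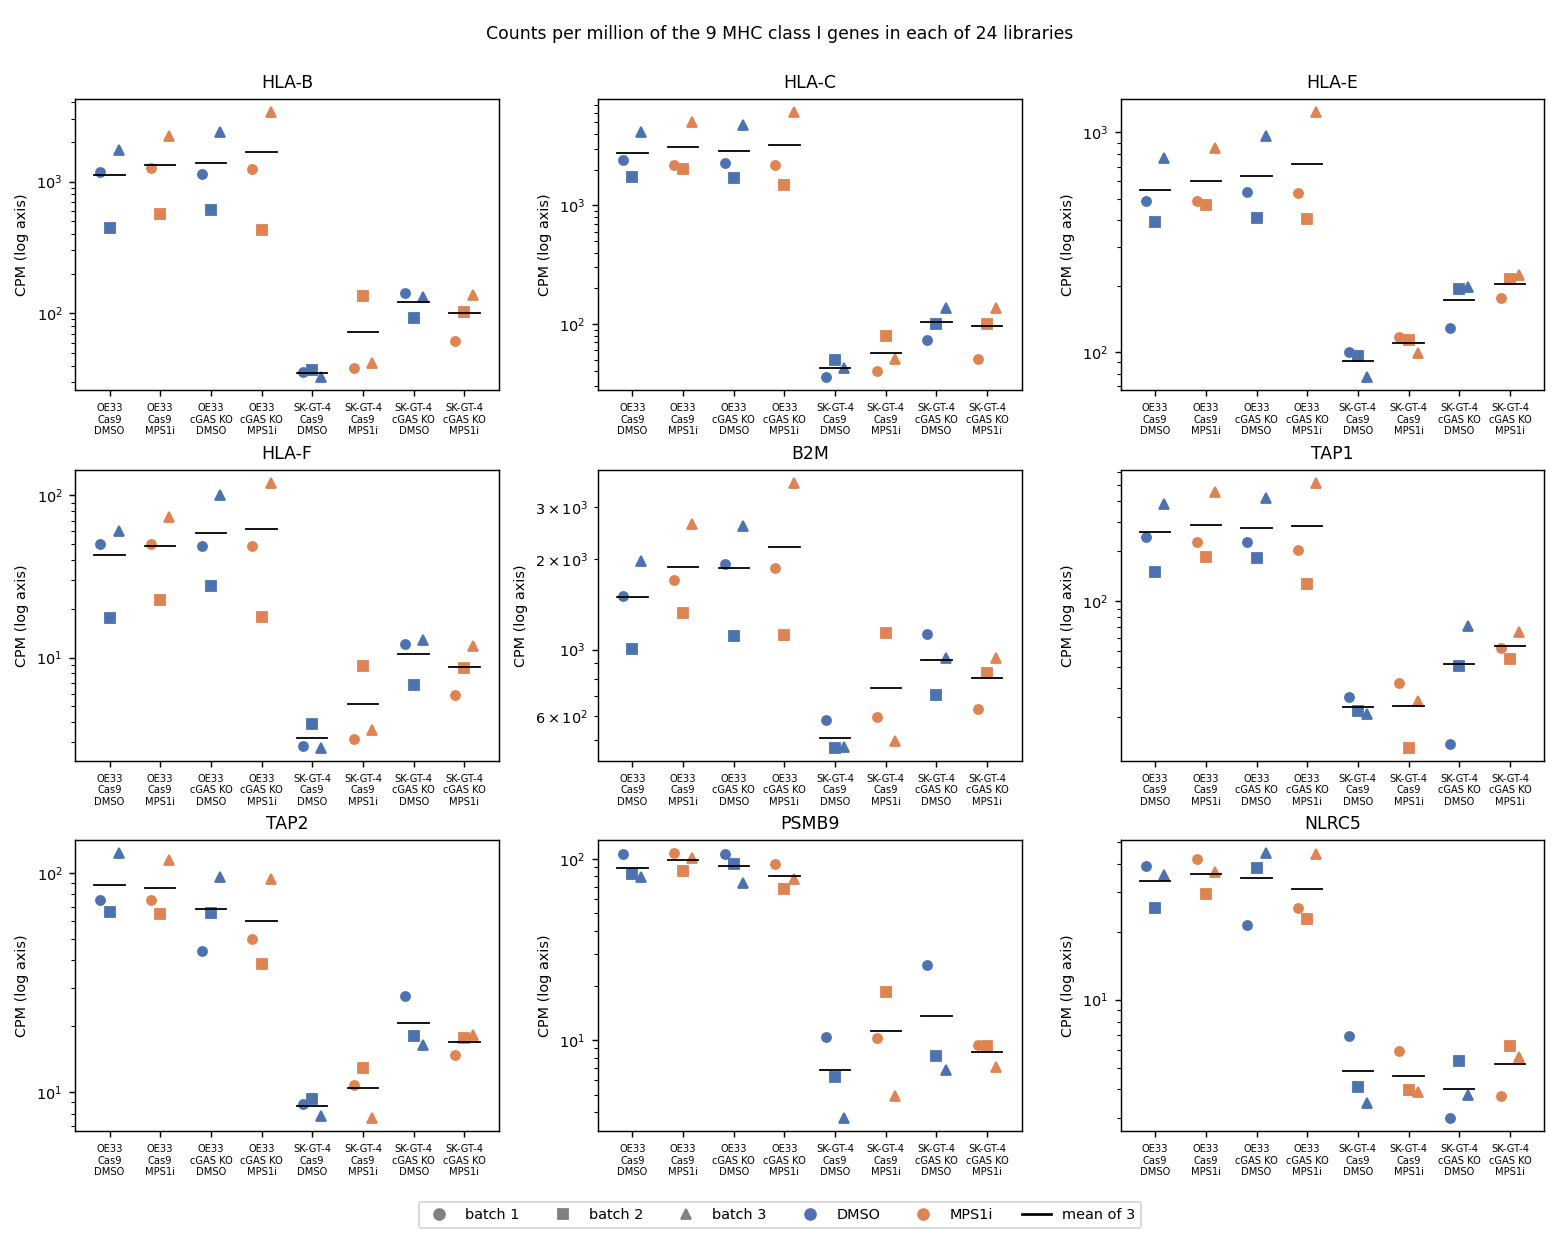
CPM of each member (log axis) in the 8 groups, with 1 point per library, shaped by batch and coloured by treatment, and a line at the mean of 3. The OE33 libraries lie above every SK-GT-4 library for all 9 genes except B2M, for which OE33 libraries began at 1003 CPM and SK-GT-4 libraries reached 1139 CPM. The share of all genes that separate the lines in this way is not given here.

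Other class I pathway genes followed in part. Of 17 such genes, 9 were higher and 1 lower in OE33, with a median log2 difference of 1.22. The aminopeptidases ERAP2 and ERAP1, which trim peptides in the endoplasmic reticulum, were higher by 7.28 ± 0.37 and 3.35 ± 0.41 on the log2 scale, the immunoproteasome subunit PSMB8 by 2.75 ± 0.40, and the peptide-loading factor TAPBP by 2.56 ± 0.40. FCGRT, the heavy chain of the neonatal Fc receptor, which also pairs with B2M, was lower by -4.74 ± 0.55. Of the 14 constitutive proteasome subunits, 0 were higher and 2 lower (median -0.35). Of 20 regulators, 5 were higher, among them IRF1 (1.96 ± 0.27), and RFXANK was lower. Among the 88 other genes tested in the same stretch of the MHC, 22 were higher and 6 lower, with a median log2 difference of 0.55. The 5 epithelial markers were all higher in OE33 too, with a summed level of 19598 to 20331 CPM against 3677 to 5063 CPM. The part of this difference in the class I result was not tested.

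The comparison of cGAS KO with Cas9 cells gave different values in the 2 lines. In SK-GT-4 under DMSO, 8 of the 9 members had a log2 difference above 0, with a median of 0.93 against 0.03 over all genes tested. At an adjusted p of at most 0.01, where 1.76% of all genes were called, 0 of the 9 passed by edgeR. DESeq2 called 5 (8.09% of genes) and limma with sample weights 7 (13% of genes). By edgeR 7 members had an unadjusted p under 0.05, beside 2172 genes higher and 1806 lower among the 22782 tested. At an adjusted p of at most 0.05, where 4.89% of genes were called, HLA-B, HLA-C, HLA-F and TAP2 passed. Without the 2 SK-GT-4 libraries that stood apart, 7 of the 9 were called higher at 0.01, beside 13.3% of all genes called in either direction.

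For HLA-E and TAP2 the 6 Cas9 and 6 cGAS KO libraries did not overlap. The share of all genes that separated by genotype in this way is not given here, for these or the groups below. The HLA-E Cas9 libraries held 77.1 to 117 CPM under both treatments and the cGAS KO libraries 130 to 224 CPM. Under DMSO the values were 100.4, 96.4 and 77.1 CPM in Cas9 and 130, 194 and 198 CPM in cGAS KO, in batches 1, 2 and 3 (log2 difference 0.90 ± 0.24, edgeR adjusted p = 0.056). Without the 2 libraries it was 1.10 ± 0.18 (adjusted p = 6.3e-07), and over the 13 alternatives run the difference was 0.68 to 1.18 with an adjusted p of 6.3e-07 to 0.72. TAP2, the transporter subunit, held 8.9, 9.3 and 7.8 CPM in Cas9 DMSO and 27.6, 18.1 and 16.5 CPM in cGAS KO DMSO, and the 6 Cas9 libraries (7.6 to 12.9 CPM) lay below the 6 cGAS KO libraries (14.8 to 27.6 CPM). Its log2 difference was 1.23 ± 0.26 (edgeR, adjusted p = 0.020), and 0.99 ± 0.20 without the 2 libraries (adjusted p = 7.3e-05, against up to 0.39 over the alternatives, with differences of 0.98 to 1.38).

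HLA-C held 35.7, 50.2 and 42.5 CPM in Cas9 DMSO and 72.9, 101 and 137 CPM in cGAS KO DMSO (1.22 ± 0.27, edgeR adjusted p = 0.026). HLA-B held 35.8, 37.3 and 32.8 CPM in Cas9 DMSO and 143, 92.2 and 133 CPM in cGAS KO DMSO (1.82 ± 0.44, adjusted p = 0.037). For both genes the DMSO groups did not overlap, while under MPS1i the Cas9 library of batch 2, at 80.1 and 135 CPM, lay among the cGAS KO libraries. HLA-F held 2.8 to 3.9 CPM in Cas9 DMSO and 6.7 to 12.9 CPM in cGAS KO DMSO (1.77 ± 0.43, adjusted p = 0.037). B2M (0.86 ± 0.34, adjusted p = 0.21) and PSMB9 (0.93 ± 0.41, adjusted p = 0.27) did not pass.

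The TAP1 value depended on the 2 libraries that stood apart. It held 26.5, 21.7 and 20.8 CPM in Cas9 DMSO and 13.8, 40.6 and 70.8 CPM in cGAS KO DMSO, where batch 1, the library that stood apart, was below every Cas9 DMSO library while PSMB9 (26.0 CPM), HLA-B and B2M (1127 CPM) were at their highest of that group. Cas9 MPS1i of batch 2 had the same combination, with TAP1 at 13.1 CPM, PSMB9 at 18.4 CPM and B2M at 1139 CPM. With both libraries the TAP1 log2 difference was 0.76 ± 0.47 (edgeR, adjusted p = 0.46), and without them 1.30 ± 0.18 (adjusted p = 6.9e-09), with a range of 0.18 to 1.47 over the alternatives (adjusted p up to 0.96). NLRC5 held 3.5 to 6.9 CPM in Cas9 DMSO and 3.0 to 5.4 CPM in cGAS KO DMSO, a log2 difference of -0.25 ± 0.36 (adjusted p = 0.78), and without the 2 libraries PSMB9 (0.46 ± 0.24, adjusted p = 0.19) and NLRC5 (adjusted p = 1) were the members not called under DMSO.

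Under MPS1i, 8 of the 9 members again had a log2 difference above 0 in SK-GT-4, with a median of 0.71, and 0 passed at 0.01 by edgeR, where 1.41% of all genes were called. The number with an unadjusted p under 0.05 was 4, beside 2088 genes higher and 2115 lower among the 22782 tested. DESeq2 called 1 (HLA-E, beside 7.75% of genes) and limma 7 (beside 12.6%). HLA-E was at 0.89 ± 0.24 (edgeR, adjusted p = 0.059), TAP2 at 0.72 ± 0.26 (0.16) and TAP1 at 1.20 ± 0.47 (0.19). HLA-C, HLA-E and TAP2 were higher in cGAS KO in 3 of 3 batches under both treatments. The share of all genes with that pattern is not given here. Without the 2 libraries, 6 members were called (HLA-B, HLA-C, HLA-E, HLA-F, TAP1 and TAP2, by 0.82 to 1.33 on the log2 scale), beside 11.6% of all genes.

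The epithelial markers moved with this comparison in SK-GT-4. Their summed level was 3677 to 5063 CPM in Cas9 DMSO and 9637 to 19355 CPM in cGAS KO DMSO, and 3837 to 8637 CPM against 9021 to 10383 CPM under MPS1i. CDH1, the adhesion protein E-cadherin, was higher in cGAS KO by 3.53 ± 0.47 under DMSO (edgeR, adjusted p = 0.0020) and EPCAM, an epithelial adhesion molecule, by 2.71 ± 0.41 (adjusted p = 0.0039). Without the 2 libraries these were 3.83 ± 0.22 and 2.30 ± 0.19, and 5 of the 5 markers were called higher under each treatment. CDH1 was uneven within cGAS KO, at 21.4, 174 and 202 CPM in batches 1, 2 and 3 under DMSO. Under MPS1i the cGAS KO libraries held 21.4, 224 and 209 CPM, and that batch 1 library was not left out. Why CDH1 differed between these batches was not tested. The 10 markers of other cell types summed to 48.2 to 74.9 CPM in Cas9 DMSO and 17.1 to 85.5 CPM in cGAS KO DMSO, with MS4A1 at 0 in every library. The part of these markers in the class I result was not tested. With all libraries, the 83 neighbours tested in the MHC had a median log2 difference of 0.11 under each treatment. There 0 were called at 0.01, as for the members in that fit. Their values without the 2 libraries are not given here.

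In OE33 no member passed under DMSO. There 0 of the 9 were called by edgeR, beside 1.47% of all genes, and DESeq2 and limma called 0. By edgeR 2 members had an unadjusted p under 0.05, beside 1895 genes higher and 1674 lower among the 20426 tested. HLA-C held 2255, 1701 and 4723 CPM in cGAS KO DMSO, beside the 2410, 1728 and 4163 CPM of Cas9 DMSO given above, a log2 difference of -0.02 ± 0.15. HLA-B (0.27 ± 0.17), HLA-E (0.14 ± 0.13), B2M (0.26 ± 0.14), TAP1 (0.06 ± 0.14), PSMB9 (0.00 ± 0.12) and NLRC5 (0.02 ± 0.23) differed by less than 2 SE, and HLA-F by 0.42 ± 0.18 (edgeR, adjusted p = 0.24). Without cGAS KO DMSO of batch 2, HLA-B was at 0.13 ± 0.18, HLA-F at 0.28 ± 0.19, TAP1 at -0.04 ± 0.15, PSMB9 at -0.11 ± 0.13 and NLRC5 at -0.27 ± 0.21, and none of these was called.

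TAP2 had the lowest log2 difference of the 9 members in OE33 under both treatments. Its Cas9 libraries held 75.5, 65.9 and 122 CPM under DMSO and 75.1, 65.2 and 115 CPM under MPS1i, and its cGAS KO libraries 44.03, 65.6 and 96.0 CPM and 49.9, 38.2 and 93.4 CPM. The cGAS KO library was the lower one in each of the 3 batches under both treatments, although batch 2 under DMSO differed by little and the groups overlapped. The log2 difference was -0.39 ± 0.15 under DMSO (edgeR, adjusted p = 0.19) and -0.56 ± 0.15 under MPS1i (adjusted p = 0.035, with 7.98% of genes called at 0.05). Without cGAS KO DMSO of batch 2, the library with 15.6 CPM of CGAS, it was called at 0.01 under both, at -0.62 ± 0.14 (adjusted p = 0.0067) and -0.58 ± 0.12 (0.0027), beside 4.77% and 6.69% of all genes. Over the 11 alternatives the difference was -0.62 to -0.20 under DMSO (adjusted p of 0.0067 to 0.83) and -0.69 to -0.47 under MPS1i (0.0014 to 0.65). PSMB9 under MPS1i was at -0.32 ± 0.12 (edgeR, adjusted p = 0.13). There 0 of the 9 passed at 0.01 by edgeR with all libraries, where 2.84% of all genes were called. The members with an unadjusted p under 0.05 were 2, beside 2315 genes higher and 2032 lower among the 20426 tested.

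**Figure D2:**
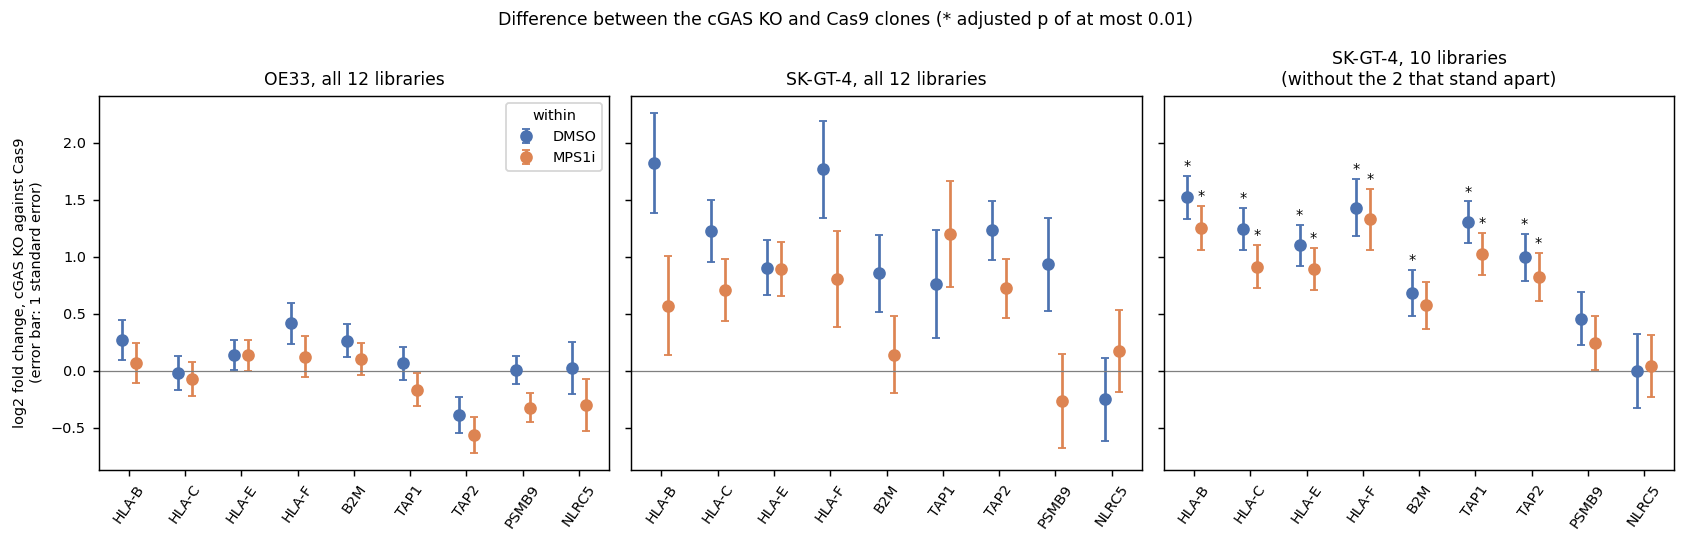
Log2 fold change of cGAS KO against Cas9 for the 9 members within DMSO and MPS1i, with bars of 1 standard error and stars at an adjusted p of at most 0.01, in OE33, in SK-GT-4 and in SK-GT-4 without the 2 libraries that stand apart. SK-GT-4 values reach 1.82 for HLA-B under DMSO with 0 stars over 12 libraries, and 7 members are starred under DMSO and 6 under MPS1i over 10, while OE33 values lie between -0.56 and 0.42.

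Whether the genotype difference was itself unequal between the lines was tested under DMSO. The difference in OE33 minus that in SK-GT-4 was -1.60 ± 0.31 for TAP2 (edgeR, adjusted p = 0.0047), the single member called at 0.01 beside 1.66% of all genes. HLA-C followed at -1.22 ± 0.33 (adjusted p = 0.042, with 3.22% of genes called at 0.05), and HLA-B (-1.54 ± 0.50, 0.11), HLA-F (-1.33 ± 0.47, 0.16) and HLA-E (-0.75 ± 0.28, 0.19) did not pass. The TAP2 call was lost without batch 1 (-1.19, adjusted p = 0.10), without batch 3 (-1.66, 0.26) and with no block for batch (-1.62, 0.11), and its direction held in each. Leaving out the 3 libraries set aside was an alternative chosen after the data were seen. It gave 6 members called, all lower in OE33, beside 8.57% of all genes. These were TAP2 (-1.64), HLA-B (-1.42), TAP1 (-1.37), HLA-C (-1.30), HLA-F (-1.19) and HLA-E (-0.95), with edgeR adjusted p from 6.7e-08 to 0.0017.

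The interferon-stimulated genes gave other values than the class I genes. In OE33 under DMSO, 4 of the 14 tested were higher in cGAS KO and 0 lower (median log2 difference 1.00), namely IFI27 (5.30 ± 0.21), IFI6 (2.62 ± 0.38), the interferon-induced RNA-binding protein IFIT1 (2.19 ± 0.33) and the antiviral GTPase MX1 (1.74 ± 0.35). Without cGAS KO DMSO of batch 2, 9 of the 14 were called higher. In SK-GT-4, IFIT2 was lower under DMSO (-1.43 ± 0.25, edgeR adjusted p = 0.0089), and IFIT2 (-2.19 ± 0.26) and IFIT1 (-1.76 ± 0.21) were lower under MPS1i, with list medians of -0.34 and -0.37. Without the 2 SK-GT-4 libraries, 3 were called lower and 1 (IFI6) higher under DMSO, and 5 lower under MPS1i. The difference between the lines was called for 4 of these genes, all higher in OE33, with a median of 1.83, beside -0.91 for the 9 class I members, and for 10 without the 3 libraries. Among other class I pathway genes, FCGRT was higher in OE33 cGAS KO (2.23 ± 0.29 under DMSO, 1.95 ± 0.27 under MPS1i). In SK-GT-4 with all libraries, 0 of 16 passed, with 15 of 16 above 0 and a median of 0.61 under DMSO. IRF1 was at 0.05 in OE33 and -0.23 in SK-GT-4. Of the 8 class II genes tested in OE33 under DMSO, 2 had a difference above 0 (median -0.53), and CD74 was the 1 called, higher in cGAS KO by 0.91 ± 0.16 (adjusted p = 0.0044), while HLA-DMA was at -0.78 ± 0.19 (adjusted p = 0.026). Among ligands of natural killer cell receptors, NECTIN2 (0.93 ± 0.14) and PVR (0.74 ± 0.15) were higher in OE33 cGAS KO under MPS1i. The monocyte marker CD14 was higher in OE33 cGAS KO under DMSO by 1.23 ± 0.23, and the 10 markers of other cell types summed to 2.31 to 5.05 CPM in Cas9 and 4.70 to 12.8 CPM in cGAS KO. The 82 OE33 neighbours in the MHC had medians of -0.20 and -0.21 with 0 called, beside which TAP2 lay lower and the HLA genes did not.

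MPS1i for 48 h moved no member past the threshold. In OE33 Cas9 cells, 8 of the 9 log2 differences against DMSO were above 0 with a median of 0.11, and 0 were called by edgeR, DESeq2 or limma, beside 0.0049% of all genes by edgeR. B2M had the largest, at 0.31 ± 0.14 (edgeR, unadjusted p = 0.046, adjusted p = 0.71), and was higher in 3 of 3 batches, from 1508 to 1706, 1003 to 1327 and 1981 to 2634 CPM. Within batches 1, 2 and 3 these rises were 0.18, 0.40 and 0.41 on the log2 scale. The spread of 1003 to 1981 CPM between the DMSO libraries was between batches, which the fit takes as a block. HLA-B was at 0.24 ± 0.17 and HLA-C at 0.09 ± 0.15. TAP2, at -0.06 ± 0.15, was lower in 3 of 3 batches. In OE33 cGAS KO cells 4 of 9 were above 0, with a median of -0.11. There 0 were called by edgeR (0 of 9 also at an unadjusted p under 0.05), DESeq2 or limma, beside 0% of all genes by edgeR. The shares of all genes by DESeq2 and limma are not given here for MPS1i. The paper, using DESeq2 on batch-corrected counts at the same adjusted p, reported far more genes raised by MPS1i in both lines. It followed some of the cGAS-dependent ones by RT-qPCR, and IL-8 by ELISA. The edgeR fit here called 1 gene in OE33 Cas9 cells and 0 in SK-GT-4 Cas9 cells. The lack of a called member therefore does not show that the members were unchanged.

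In SK-GT-4 Cas9 cells 7 of the 9 were above 0 with a median of 0.37, and the values were widest for HLA-B (0.90 ± 0.44), PSMB9 (0.73 ± 0.41) and HLA-F (0.64 ± 0.42). HLA-B held 38.4, 135 and 41.9 CPM under MPS1i against 35.8, 37.3 and 32.8 CPM under DMSO, so the groups did not overlap and batch 2, the library that stood apart, carried most of the difference. The count of members called was 0 by edgeR, with 0 at an unadjusted p under 0.05, beside 0% of all genes by edgeR. It was also 0 by DESeq2 and limma. Without the 2 libraries HLA-B was at 0.17 ± 0.19 and the median over the members was 0.15, with 0 called. Among the SK-GT-4 cGAS KO libraries 3 of 9 were above 0, with a median of -0.20, and 0 were called by the same 3 tools. By edgeR 0% of all genes were called there, and 0 members had an unadjusted p under 0.05. Without the 2 libraries the median there was -0.05, with 0 called.

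**Figure D3:**
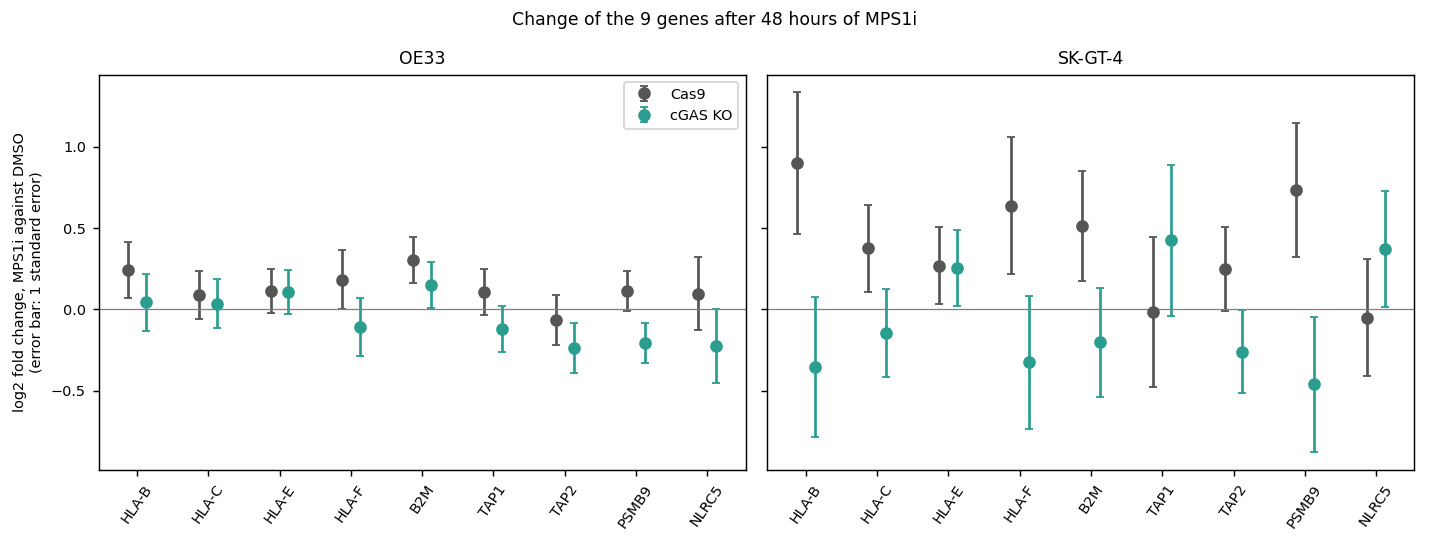
Log2 fold change of MPS1i against DMSO for the 9 members in Cas9 and cGAS KO cells of each line, with bars of 1 standard error. The OE33 values lie between -0.24 and 0.31 and the SK-GT-4 values between -0.46 and 0.90, with no member called in either line.

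The interaction, which is how far the MPS1i change of Cas9 cells exceeds that of cGAS KO cells, was above 0 for 9 of 9 members in OE33 (median 0.20) and 7 of 9 in SK-GT-4 (median 0.52). No member was called in either line by edgeR, DESeq2 or limma, with 0% of all genes called by edgeR. By edgeR and DESeq2 no member had an unadjusted p under 0.05. Among all genes edgeR gave 212 above 0 and 171 below at that level in OE33, of 20426 tested. In SK-GT-4 it gave 428 above and 122 below, of 22782. The count over all genes is not given here for limma, which with sample weights gave 4 members in OE33. These were HLA-F (0.61), TAP1 (0.45), HLA-B (0.51) and B2M (0.38), each with a limma adjusted p = 0.998. The OE33 values rested on batch 2, without which 4 of 9 were above 0 and the median was -0.0034, and without cGAS KO DMSO of batch 2 alone the median was 0.08. The widest values were PSMB9 and NLRC5 at 0.32 in OE33, and HLA-B at 1.25 ± 0.61 and PSMB9 at 1.19 ± 0.58 in SK-GT-4 (edgeR, adjusted p = 0.82 for both). Without the 2 libraries that stood apart these fell to 0.27 ± 0.26 and 0.22 ± 0.32 and the median to 0.21, and limma with sample weights gave 0.32 and 0.27. With all SK-GT-4 libraries the median of the 14 constitutive proteasome subunits, at 1.10, was above that of the members, and without the 2 it was -0.13. The MPS1i change in Cas9 cells differed between the lines for 0 members, also at an unadjusted p under 0.05, with 0% of all genes called.

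The numbered batches differed in OE33. HLA-B, HLA-C, HLA-E, HLA-F, B2M and TAP1 were lowest in batch 2, intermediate in batch 1 and highest in batch 3 in all 4 OE33 groups. HLA-B in the cGAS KO MPS1i group, for example, held 1247, 429 and 3341 CPM in batches 1, 2 and 3. The test of any difference between batches, run after these values were seen, called 7 of the 9 members, beside 15.3% of all OE33 genes. Batch 3 exceeded batch 2 by 2.24 for HLA-B, 2.05 for HLA-F, 1.56 for HLA-C, 1.5 for TAP1, 1.25 for B2M, 1.20 for HLA-E and 0.90 for TAP2 on the log2 scale. The difference of batch 3 from batch 2 was 0.03 for PSMB9, 0.02 for its neighbour PSMB8, the other immunoproteasome subunit of this locus, and 0.52 for NLRC5. For PSMB9 batches 2 and 3 both lay below batch 1, by -0.33 and -0.30. The test of any difference among the 3 batches gave edgeR adjusted p-values of 0.044 for PSMB9, 0.14 for PSMB8 and 0.13 for NLRC5. In SK-GT-4 the same test called 0 of the 9 members, by edgeR, beside 0.0263% of all genes, and HLA-C and PSMB9 had an unadjusted p under 0.05. The share of all genes at that unadjusted p is not given here. What the batches of a line shared beyond the number is not given in the labels.

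**Figure D4:**
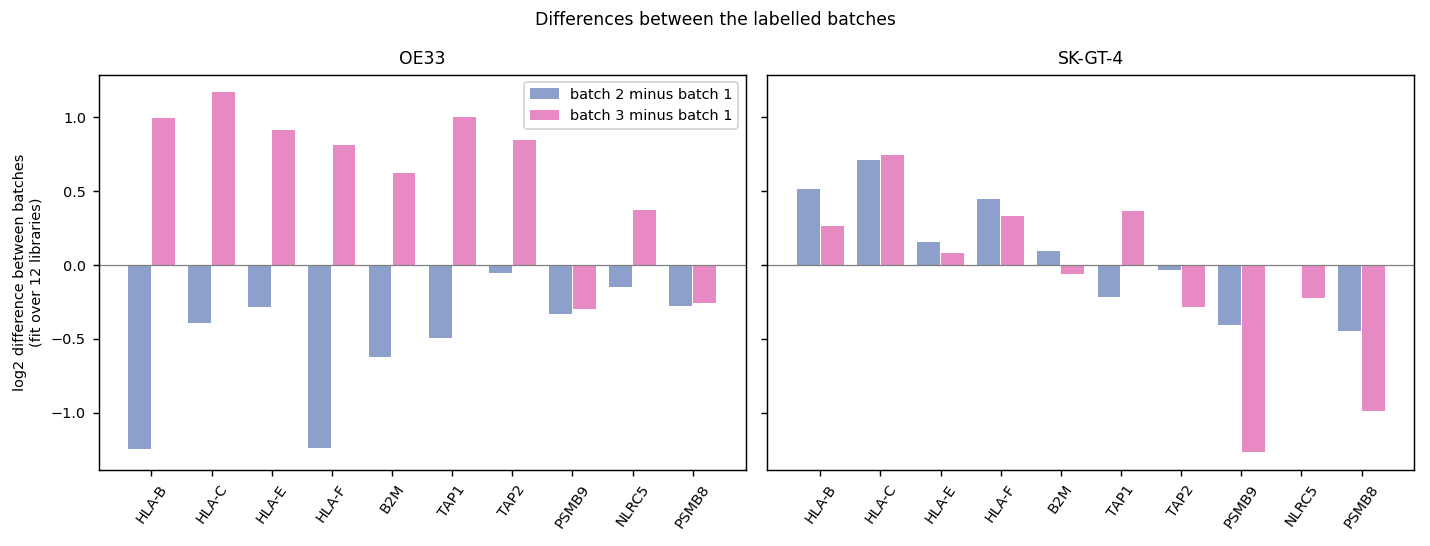
Log2 differences of batches 2 and 3 from batch 1 for the 9 members and PSMB8, from the fit over the 12 libraries of each line. In OE33, HLA-B was at -1.24 in batch 2 and 0.99 in batch 3, with the other HLA genes, B2M and TAP1 in the same order, while PSMB9 and PSMB8 were below 0 in both.

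How far the members moved together was described by Pearson correlations across libraries of a line, which share batch, genotype and treatment. The median r of a member with the other 8 in OE33 was 0.68 to 0.93 for HLA-B, HLA-C, HLA-E, HLA-F, B2M, TAP1 and TAP2, 0.62 for NLRC5 and -0.0051 for PSMB9, over 12 libraries. In SK-GT-4 it was 0.72 to 0.81 for the HLA genes, B2M and TAP2, 0.31 for PSMB9, 0.26 for TAP1 and -0.084 for NLRC5. Over the 24 libraries, each centred on its line, the 5 genes outside the members with the largest r with the members' mean included LY75 (0.954), EFNA1 (0.922), RRNAD1 (0.909) and AHSA2P (0.888), among 11710 genes ranked.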

How the data were processed

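The authors sequenced poly(A) RNA as 150-bp pairs, aligned it to GRCh38 with HISAT2 2.0.5 and deposited raw counts per gene from featureCounts 1.5.0, and the annotation release and strand setting are not given in the sources used here. All 24 libraries were used. Depth was 15561268 to 25284177 counts and the lowest count of a member in a library was 51, so counting error adds to the spread of the low members (HLA-F and NLRC5 in SK-GT-4). Counts were fitted per line with edgeR 4.0.16 (R 4.3.3), using TMM scaling, a group term, the batch as a block, and genes with a total of at least 5 counts over at least 4 nonzero libraries. The lines were compared in a fit over all libraries, with the batch number as a block shared by both lines. The labels do not say whether a number marks the same event in both. Tests of whether an effect differed between the lines used a block for each line and batch. Genes were called at an adjusted p (Benjamini-Hochberg, all genes tested) of at most 0.01. CPM was scaled by TMM over 24 libraries, and RPKM used the deposited gene length. Correlations used log2 CPM with a prior count of 2. Checks used DESeq2 1.42.0, limma 3.58.1, other filters and left-out libraries, and the scripts were tested on simulated data. Replicates are the labelled batches, which the study calls biological repeats, and p-values measure the spread between these libraries only.

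The labels give same-numbered libraries a shared batch. Deviations from the group means correlated with a median Pearson r of 0.360 between same-numbered libraries of a genotype in OE33 (0.187 to 0.550, 6 pairs) and of 0.258 in SK-GT-4 (0.0868 to 0.532, 6 pairs), so batch was kept as the block. No pair of libraries of the same group agreed within sampling noise, and pairs across groups are not given here. Named were all 9 members, CGAS, the called genes of each list or standing examples (among them IRF1, TAPBP and PSMB8), and genes from the 5 most like the members' mean. Some genes that this rule names are not reported here. The members and lists were chosen with earlier results of these data known.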

Additional observations from a re-analysis of the deposited data

Results flagged for a closer look

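The TAP2 difference between cGAS KO and Cas9 cells under DMSO was unequal between the lines by a test of that difference. In OE33 it was -0.39 ± 0.15 and in SK-GT-4 1.23 ± 0.26 on the log2 scale, a difference of -1.60 ± 0.31 (edgeR, adjusted p = 0.0047). TAP2 was lower in cGAS KO in 3 of 3 OE33 batches, by only -0.0073 in batch 2, and higher in 3 of 3 SK-GT-4 batches. The call was lost without batch 1 (edgeR, adjusted p = 0.10), without batch 3 (0.26) and with no block for batch (0.11). It was kept without the 3 libraries set aside (-1.64). The cause was not tested.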

How the results depend on the processing

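Of 1350 values of the 9 members under alternatives, 1291 kept their side of the threshold, 54 came to pass it, 5 ceased to pass and 0 turned direction while called, and 96 that were called in neither fit changed sign. For cGAS KO against Cas9 in SK-GT-4 under DMSO (0 members called), an adjusted p of 0.05 gave 4, DESeq2 5 and limma 7, and leaving out libraries gave 0 to 7. Under MPS1i (0), DESeq2 gave 1 and limma 7, and leaving out libraries gave 0 to 6. The 2 SK-GT-4 libraries left out for standing apart were picked from these same data. In OE33 under MPS1i (0), an adjusted p of 0.05, no filter and limma each gave 1, and leaving out libraries gave 0 to 1, as it did under DMSO (0). The difference of the genotype effect between lines (1) became 2 at an adjusted p of 0.05 and with DESeq2, and 0 to 2 without 1 batch. It became 6 without the 3 libraries set aside, an alternative chosen after seeing the data. The cause was not tested.

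With no replicate block that difference gave 0 members. A block for each genotype and batch gave 0 members, as in the main fit, for every MPS1i comparison, and the pairing changed no other call. The genotype comparisons could not be fitted with that block. Leaving out a batch leaves 2 libraries per group, and a group of 2 libraries limits what these tests can show.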
